A study of Mus musculus with 2 samples.

Results

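The genes described here encode the MHC class II molecules of the mouse and the proteins that load them, and they were chosen by name: every probe set whose platform gene symbol was 1 of 10 listed genes was taken. They comprise the classical chains H2-Aa, H2-Ab1, H2-Ea and H2-Eb1, the invariant chain Cd74, the DM chains H2-DMa and H2-DMb1, the DO chains H2-Oa and H2-Ob, and the transactivator Ciita. All 10 were measured, out of 8251 genes named by a probe set of their own, by 11 single-gene probe sets out of 12422 that are not controls. Both samples were mouse spleen total RNA from a commercial supplier, with 1 catalogue number, hybridised to 2 oligonucleotide arrays. They form 1 group, called array 1 and array 2 after their titles. No treatment, strain, sex or age is given in the labels, and no condition was compared with another. Nothing in the labels ties the arrays to separate animals, so the spread between them may be technical, and no p-value was computed.

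MHC class II molecules present peptides from the endosomal pathway to CD4+ T cells. An alpha and a beta chain pair in the endoplasmic reticulum around the invariant chain, which blocks the groove and steers the complex to endosomes. There the invariant chain is cut down to a short fragment, DM exchanges this fragment for peptides, and DO restrains DM, chiefly in B cells. Ciita, which binds no DNA itself, is recruited to class II promoters by factors sitting on their X and Y boxes and switches class II genes on. In the spleen the pathway is known chiefly from B cells, dendritic cells and macrophages.

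In the RefSeq annotation of assembly GRCm38.p6, which is of strain C57BL/6J, 8 of the 10 genes lie on chromosome 17, in the order H2-Oa, H2-DMa, H2-DMb1, H2-Ob, H2-Ab1, H2-Aa, H2-Eb1 and H2-Ea. Cd74 and Ciita lie on chromosomes of their own, outside this cluster.

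RefSeq promoter windows of 300 bases, from 250 before to 50 after an annotated start, were at hand for 6 of the 10 genes in 7 windows. H2-Ab1, H2-Ea, Cd74 and Ciita had none. The core of the X box, bound by the RFX complex, was searched as GNAAC and that of the Y box, bound by NF-Y, as TGATTGG, on both strands, the letters having been chosen after the windows were seen. The core pair, GNAAC followed by TGATTGG with 20 to 30 bases between, was found in H2-Aa, H2-Eb1, H2-DMb1, H2-Oa and H2-Ob. The stretches are shown for the spaced pair of letters they hold, with both cores in capitals, 5′ to 3′ on the gene's strand.
H2-Aa: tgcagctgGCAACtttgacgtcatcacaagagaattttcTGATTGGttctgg
H2-Eb1: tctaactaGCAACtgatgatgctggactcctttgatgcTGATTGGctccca
H2-DMb1: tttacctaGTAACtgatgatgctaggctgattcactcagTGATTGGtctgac
H2-Oa: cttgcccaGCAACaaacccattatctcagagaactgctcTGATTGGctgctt
H2-Ob: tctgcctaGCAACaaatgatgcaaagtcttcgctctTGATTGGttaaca

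These stretches come from RefSeq, build GRCm38.p6. H2-Aa is on the minus strand at chr17:34287861-34287912, and the others are on the plus strand. H2-Eb1 is at chr17:34305768-34305818, H2-DMb1 at chr17:34153089-34153140, H2-Oa at chr17:34092295-34092346 and H2-Ob at chr17:34238810-34238858. The spacing was limited by the range set in the search, so its likeness among them was not tested. Within that range, 26 bases separated the cores in H2-Aa, H2-DMb1 and H2-Oa, 25 in H2-Eb1 and 23 in H2-Ob. The Y box core began 50 bases before the annotated start in H2-Aa, 61 in H2-Eb1, 63 in H2-DMb1, 45 in H2-Oa and 59 in H2-Ob. Of all 32851 windows of the same length, 84.8% held GNAAC, 7.82% held TGATTGG and 0.323% held the spaced pair on either strand. Neither of the H2-DMa windows held TGATTGG.

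The whole window of H2-Eb1, chr17:34305617-34305916 on the plus strand, places its pair in the context of the promoter, with the same cores in capitals.
H2-Eb1 window: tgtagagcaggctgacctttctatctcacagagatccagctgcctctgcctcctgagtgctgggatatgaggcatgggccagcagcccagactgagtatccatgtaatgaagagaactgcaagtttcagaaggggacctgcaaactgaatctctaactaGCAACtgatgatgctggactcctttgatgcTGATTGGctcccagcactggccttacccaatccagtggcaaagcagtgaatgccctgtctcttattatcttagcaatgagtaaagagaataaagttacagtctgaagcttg

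**Figure D1:**
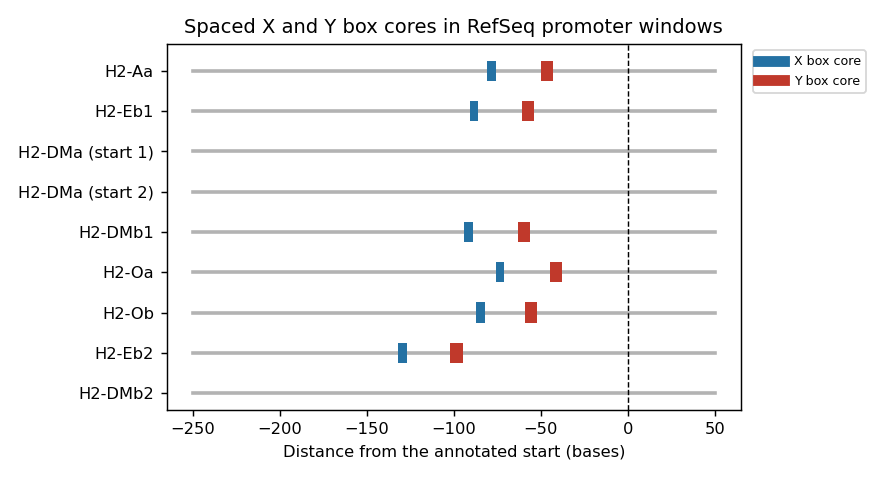
Each grey line is a RefSeq promoter window, drawn by distance in bases from the annotated start (dashed line), and the bars are the X and Y box cores where they occur as a spaced pair. The pair lies before the start in H2-Aa, H2-Eb1, H2-DMb1, H2-Oa, H2-Ob and the neighbouring gene H2-Eb2, and no pair is drawn for the windows of H2-DMa and H2-DMb2.

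The deposited values are signal intensities and were treated as being on a linear scale, since their scaling is not given. The 15 control probe sets for bacterial genes, which have no target in mouse RNA, reached at most 95 on array 1 and 76.2 on array 2. Bright here means a signal above the 60th percentile of all non-control probe sets on each of the arrays, a cutoff of 346.32 (array 1) and 342.22 (array 2). All 11 probe sets of the class II genes were bright, whereas 37.9% of all 12422 probe sets were. All 11 also exceeded every bacterial control on both arrays, as did 65.5% of all probe sets. By gene, with each gene read from its brightest probe set, 10 of 10 class II genes passed, and so did 45.2% of the 8251 named genes. With the cutoff raised to the 75th percentile it was still 10 of 10, next to 28.5% of named genes. The median log2 signal of the 10 genes was 13.16, and that of all named genes was 8.29. How bright a probe set is also reflects the sequence of its probes, so the levels below place each gene within its array and do not rank transcripts. In RNA of a whole organ, fewer cells of a type and less RNA per cell cannot be told apart.

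The classical chains form the peptide-binding molecules I-A and I-E, each of an alpha and a beta chain. H2-Aa, the alpha chain of I-A, gave 24811.5 on array 1 and 26087 on array 2, and 27 and 26 of the 12422 probe sets were brighter there. H2-Ab1, its beta chain, gave 10320.2 and 10011.6, with 119 and 123 probe sets brighter. Both I-A chains thus sat among the brightest features of the arrays.

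H2-Eb1, the beta chain of I-E, gave 15804 on array 1 and 16832.6 on array 2, and 75 and 73 probe sets were brighter. H2-Ea, the alpha chain of I-E, gave 14892.4 and 16168.2, with 85 and 78 probe sets brighter. H2-Ea exceeded the highest bacterial control 157-fold on array 1 and 212-fold on array 2. The RefSeq annotation, which is of C57BL/6J, lists H2-Ea as a transcribed pseudogene; C57BL mice are known for a deletion at its promoter and for making no I-E. The spleen RNA used here thus gave strong signal on a probe set of a gene that the C57BL/6J annotation does not list as protein-coding. The strain of the donor mice is not in the labels.

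Cd74, the invariant chain, chaperones the classical class II pairs and reached 30756.8 on array 1 and 30785.5 on array 2. Only 14 and 16 probe sets were brighter. Its values differed by less between the arrays than those of any other class II probe set, with a coefficient of variation of 0.066%, against a highest value of 6.58% for H2-Oa.

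The DM chains form the endosomal editor of peptides. H2-DMa, the alpha chain, gave 3444.1 on array 1 and 3533.2 on array 2. Another probe set of H2-DMa, with the suffix _f_at that marks a family of similar sequences, gave 813.5 and 849.4. Both H2-DMa probe sets were bright, though they differed in level, and both were slightly higher on array 2. H2-DMb1, a beta chain of DM, gave 8386.5 on array 1 and 8165.7 on array 2, with 143 and 154 probe sets brighter. Mice carry a close copy, H2-DMb2, next to H2-DMb1, and the H2-DMb1 probe set has the suffix _g_at, which also marks similar sequences. The reading of H2-DMb1 apart from H2-DMb2 is therefore uncertain. The H2-DMb2 probe set gave 3021.5 and 2976.5, and was bright as well. It has a suffix too, _i_at, and its reading apart from H2-DMb1 was not tested.

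The DO chains form the modulator of DM. H2-Oa, its alpha chain, gave 1515.5 on array 1 and 1380.8 on array 2, with 1186 and 1337 probe sets brighter. H2-Ob, its beta chain, gave 1815.8 and 1736.6, with 937 and 986 brighter. Both DO chains were lower on array 2, and both were more than 4 times the brightness cutoff, by 4.38-fold and 4.03-fold for H2-Oa on arrays 1 and 2 and by 5.24-fold and 5.07-fold for H2-Ob.

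Ciita, the transactivator, gave 846.5 on array 1 and 872.3 on array 2. It lay above 81.0% of probe sets on array 1 and above 81.6% on array 2, and was 2.44-fold and 2.55-fold above the brightness cutoff. By role, then, the genes read from their brightest probe sets ranged on array 1 between 10320.2 and 24811.5 for the classical chains, between 3444.1 and 8386.5 for DM, and between 1515.5 and 1815.8 for DO. On array 2 these ranges were 10011.6 to 26087, 3533.2 to 8165.7 and 1380.8 to 1736.6. These ranges rest on the choice of probe set: the other H2-DMa probe set, at 813.5 and 849.4, lay below the DO range on both arrays. Because each gene is seen through its own probes, no order of the roles is drawn from them.

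**Figure D2:**
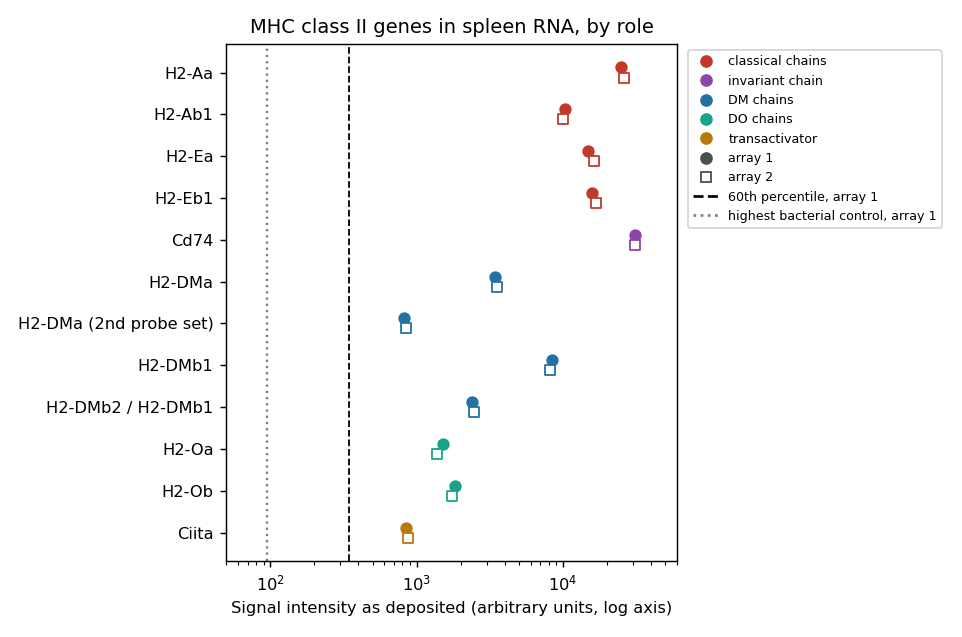
Signal intensity as deposited, on a log axis, of each class II probe set on array 1 (filled circles) and array 2 (open squares), coloured by role; the dashed line is the 60th percentile of array 1 (346.32) and the dotted line its highest bacterial control (95). All probe sets lie right of both lines, from Cd74 near 30771 to the dimmer H2-DMa probe set near 831, and the symbols of both arrays nearly coincide.

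The arrays were then compared as log2 differences of array 2 minus array 1, from which the median difference of all bright probe sets was subtracted. The differences of the 10 genes ranged from -0.13 for H2-Oa to 0.12 for H2-Ea, at most a 1.10-fold gap, with a median of 0.02. The median over the 3731 bright genes was 0.00. Of the 10 genes, 6 were higher on array 2, against 49.9% of bright genes. Cd74, at 0.003, is among these 6 and turned to -0.02 with quantile normalization, which left 5 of the 10 higher on array 2. The pooled SD between the arrays was 0.053 on the log2 scale for the 10 genes and 0.152 for all bright genes.

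The spread between arrays falls as probe sets get brighter, so it was also read by signal. Among probe sets with a mean signal of 10000 or more, the 5 class II probe sets had a pooled SD of 0.055, against 0.091 for all 124. Between 1000 and 10000, the 4 class II probe sets had 0.055, against 0.132 for all 1819. Between 500 and 1000, the 2 class II probe sets, those of Ciita and the dimmer H2-DMa one, had 0.039, against 0.176 for all 1875. With so few members a band, these values describe the arrays and single out nothing about the genes.

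Partner chains were set side by side, since each pair makes 1 protein. The log2 difference was 0.12 for H2-Ea and 0.09 for H2-Eb1, so both I-E chains were higher on array 2. It was -0.13 for H2-Oa and -0.06 for H2-Ob, so both DO chains were lower there. It was 0.07 for H2-Aa and -0.04 for H2-Ab1, and 0.04 for H2-DMa and -0.04 for H2-DMb1, so the I-A and the DM chains went opposite ways. The pooled SD describes single arrays, so the differences were set instead against the median absolute difference of all probe sets of like signal. That median was 0.066 at a mean signal of 10000 or more and 0.096 between 1000 and 10000. The differences of H2-Aa, H2-Ea, H2-Eb1 and H2-Oa were larger in size than this median, and those of the other chains were smaller. By definition as many probe sets lie above a median as below it, so this singles out no chain. With quantile normalization the differences of H2-Aa and H2-Eb1 were 0.02 and 0.03, and those of H2-Ea and H2-Oa were 0.11 and -0.12. With 1 difference per gene, none of these was tested.

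**Figure D3:**
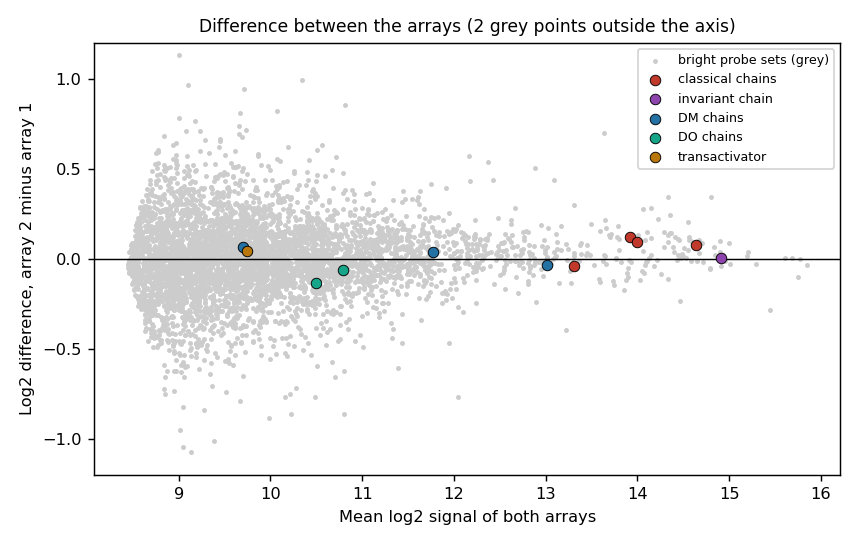
Log2 difference between the arrays (array 2 minus array 1) against the mean log2 signal for the class II probe sets, coloured by role, and for all 4708 bright probe sets in grey, 2 of which lie outside the axis. The class II points stay between -0.13 and 0.12, within the grey cloud at every signal.

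Genes that work with class II molecules were read from 6 lists, in which 26 of 31 measured genes passed the cutoff, next to 45.2% over all named genes. Among the factors at class II promoters, 4 of 5 measured genes were bright. Rfxank, a subunit of the RFX complex, gave 530.3 on array 1 and 411.5 on array 2, and the NF-Y subunits Nfya and Nfyb gave 663.5 and 685.3, and 502.3 and 518.5. Nfyc, the remaining NF-Y subunit, gave 1148 and 1115.3. By their brightest probe sets, all 3 NF-Y subunits and the RFX subunit measured were thus bright. Another Nfyc probe set, at 326.6 and 75.8, was not. Creb1, which binds beside the X box, gave 222.4 and 234.5 by its brightest probe set, below the cutoff though above every bacterial control. Other Creb1 probe sets gave 158.6 and 204.1, and 108.6 and 44.1. The value of 44.1, on array 2, lay below the highest bacterial control there, 76.2.

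Factors known to act at the promoters of Ciita were bright in 5 of 6 cases. Irf1, which drives Ciita after interferon gamma, gave 1903.2 and 1922.8 on arrays 1 and 2. Irf8 gave 3177.4 and 3726.2, Spi1, which encodes PU.1, gave 821.5 and 768.1, and Usf1 gave 525.3 and 450.4. Prdm1, a repressor of Ciita in plasma cells, was the gene of this list that was not bright, at 169 and 134.7.

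All 7 measured genes of antigen processing were bright by their brightest probe sets. Cathepsin S (Ctss), the main protease that trims the invariant chain in B cells and dendritic cells, gave 9510.7 on array 1 and 8649 on array 2. Cathepsin L (Ctsl), which does so in the thymic cortex, gave 965.6 and 823. The endosomal proteases Ctsb and Ctsd gave 10584.3 and 10500.8, and 3769.9 and 5597.2. Another Ctsb probe set, at 625.5 and 589.1, was bright. Those at 315.1 and 336, and at 23.2 and 24.6, were not. Ctsd had a log2 difference of 0.57, more than any class II gene. Lgmn, Ifi30 and Cst3 completed the list, and another Cst3 probe set passed the cutoff on array 2 alone.

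Of the turnover genes, Cd83 alone was measured, a surface protein that keeps class II from being degraded, and it gave 935.2 and 1209. Of 5 partner genes 3 were bright, namely Cd4, Cd44 and Cxcr4, a receptor reported to act with Cd74. Cd4, the T cell co-receptor for class II, gave 1011.2 and 966.6. Cd44, which pairs with Cd74, gave 351.9 and 527.3, just above the cutoff on array 1. Other Cd44 probe sets gave 9.4 and 3.4, and 17.6 and 4.8, no higher than the bacterial controls reached. Lag3, an inhibitory receptor for class II, passed the cutoff on array 2 alone, at 380.1, with 272.7 on array 1. Mif, a ligand of Cd74, gave 29.5 and 51.5, no higher than the bacterial controls reached.

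Neighbours within the class II region of chromosome 17 were bright in 6 of 7 cases by their brightest probe sets, H2-DMb2 among them. Another probe set of the neighbour Tap1 was not bright. The immunoproteasome subunits Psmb8 and Psmb9, which serve class I presentation, gave 3831.8 and 4292.3, and 2187.3 and 2302.1. The exception was H2-Eb2, a beta chain gene that lies between H2-Eb1 and H2-Ea. It gave 12 on array 1 and 12.2 on array 2, below the bacterial control medians of 20.6 and 22.9. Its promoter window holds the same spaced pair of cores as H2-Eb1, shown for that contrast (chr17:34325535-34325585, plus strand).
H2-Eb2: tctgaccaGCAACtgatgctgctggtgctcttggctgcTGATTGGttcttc

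In H2-Eb2 25 bases separate the cores, as in H2-Eb1, and the Y box core begins 102 bases before the annotated start. The H2-DMb2 window holds TGATTGG once but not the spaced pair, and the H2-DMb2 probe set was bright. As said above, the reading of that probe set apart from H2-DMb1 was not tested. A match in such a window is a description of letters and shows no binding.

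Markers of the cell classes that carry class II are read next to the 45.2% of all named genes that were bright. B cell markers were bright in 7 of 7 measured cases, with a summed intensity of 34776.6 on array 1 and 34914.7 on array 2, and Ms4a1, which encodes CD20, gave 8105.6 and 8466.5. Macrophage markers were bright in 5 of 5 cases by their brightest probe sets, with sums of 15146.5 and 15097.6. Other probe sets of Csf1r, Adgre1 and Cd68 were not bright, at 303.3 and 281, 21.6 and 19.7, and 6.4 and 17.7. Dendritic cell markers were bright in 5 of 6 cases, with sums of 3696.4 and 3818.8. Zbtb46, a transcription factor of classical dendritic cells, was the exception at 157 and 232.6. The lists differ in size and in probes, so the sums here and below do not rank the cell classes. All marker lists were chosen with earlier results of these data known, so the counts here and below are descriptions and not tests.

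Markers of classes with little or no class II in the mouse are read next to the same share of 45.2% of all named genes. T cell markers were bright in 5 of 5 cases, erythroid markers in 2 of 2 and markers of pancreatic acinar cells, which are not spleen cells, in 5 of 5, with summed intensities of 56394 and 58688.9 for the last. Another probe set of the T cell marker Cd3d was not bright, at 6 and 11.5. The acinar genes Cela1 and Ctrb1 gave 8838.8 and 8920.3, and 23276.2 and 25030.4. The RNA labelled as spleen thus also gave signal for genes of cells outside the spleen, and its source was not tested. Which cells gave the class II signal was not tested either, since both arrays hold the RNA of the whole organ. With 2 arrays of 1 group, no likeness of pattern between genes across samples could be computed.

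**Figure D4:**
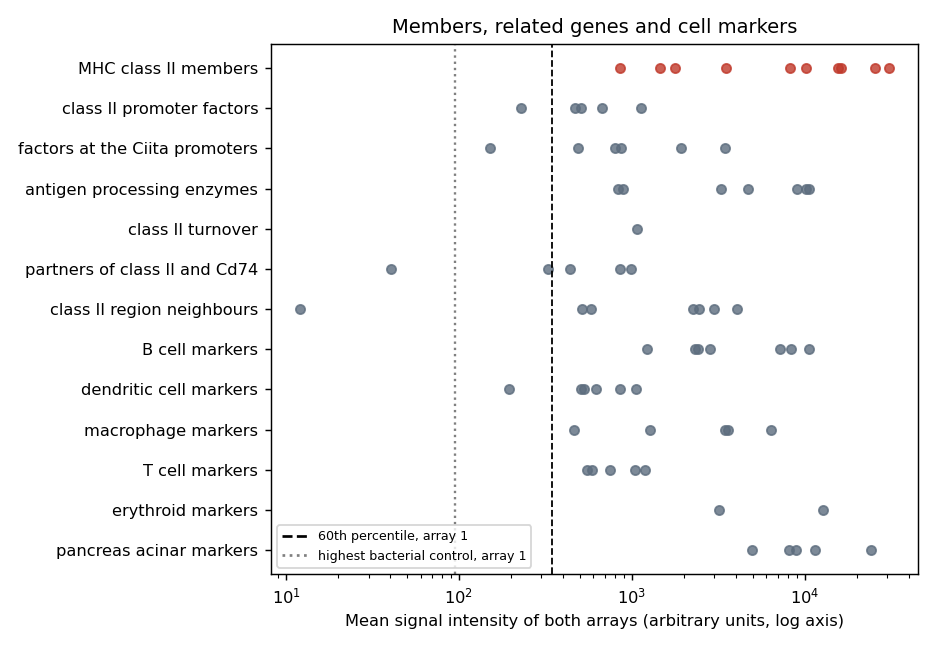
Mean signal intensity of both arrays, on a log axis, for the 10 class II genes (red) and for the genes of each related list and cell marker list (grey), 1 point per gene; lines as the 60th percentile (dashed) and the highest bacterial control (dotted) of array 1. The class II genes all lie right of the dashed line, while H2-Eb2 at 12.1 and Mif at 40.5 lie left of the dotted one.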

How the data were processed

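Signal intensity was given in the deposited table as 1 value per probe set and array, for 12488 probe sets and 2 arrays. The software and scaling are not given in the sources used here. The 66 control probe sets were left out. Gene names came from the platform annotation, in which 10833 probe sets name 1 gene, 396 several and 1193 none, and all 10 members matched RefSeq by gene identifier. Where several probe sets named a gene alone, the brightest by mean log2 value was read. For log2 values, intensities were floored at the 20th percentile of their array, 41.8 on both. The SD and coefficient of variation use both arrays (n = 2), and the pooled SD is the root mean square of the log2 differences divided by the square root of 2, tested on simulated data. Precision is limited by having 2 arrays. Alternatives changed the cutoff, array, normalization, probe sets, floor and centring. The members and lists were chosen with earlier results of these data known. Values are given for all members, for up to the first 4 measured genes of each list and for any that were not bright. Python 3.11.15, numpy 2.4.6, pandas 2.3.3 and matplotlib 3.10.9 were used.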

Additional observations from a re-analysis of the deposited data

Results flagged for a closer look

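A probe set that names both H2-DMb1 and H2-DMb2 in the annotation was left out of the counts of class II probe sets, and it carried signal far above the bacterial controls. It gave 2387.2 on array 1 and 2474.5 on array 2, against highest bacterial control values of 95 and 76.2. It was bright on both arrays, and its log2 difference between the arrays was 0.05. A check for arrays that stand apart needs at least 4 in a group and was not made.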

How the results depend on the processing

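All 11 class II probe sets and all 10 genes stayed bright with cutoffs at the 75th or 50th percentile or at the highest bacterial control (the last chosen after seeing the data), on each array alone and with quantile normalization. Without probe sets whose suffix marks several targets or relaxed selection, H2-DMb1 was no longer measured, 9 of 9 genes were bright, and the median log2 signal moved to 13.31 from 13.16, which exceeded the SD of 0.029 between the arrays; fewer genes entered it. On single arrays that median was 13.14 to 13.18. The median log2 difference between the arrays stayed between 0.001 and 0.039. The bright genes of the related lists, 26 of 31, ranged from 20 to 29 of 31 over the alternatives that kept all genes, the lowest with the 75th percentile, and were 23 of 28 without probe sets with suffixes. The floor cannot change values of bright genes. No paired analysis was possible because there is 1 group. Brightness over background limits Mif and H2-Eb2, whose signals lie in the range of the controls.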
